A study of Mus musculus with 6 samples.

Results

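The tripartite motif (Trim) genes encode ubiquitin ligases built from a RING finger, 1 or more B-boxes and a coiled coil, followed by a C-terminal domain that differs between subfamilies. The members were all rows of the count table whose symbol starts with Trim and a number, 67 of 24197 genes, a rule that reads the symbol alone. The RING finger attaches ubiquitin, the coiled coil joins 2 or more molecules, and the C-terminal domain binds the target. Several members are known as parts of antiviral defence and are induced by interferon, others act in chromatin, at microtubules or in muscle, and a few lack the RING finger.

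The RNA came from cultured stromal-vascular cells of the inguinal fat of C57BL/6 mice, the fraction that holds adipocyte progenitors and fibroblasts. One group carried a control (puro) retrovirus and the other a Prdm16 retrovirus, which delivers a transcriptional regulator that promotes the thermogenic fat cell fate, with 3 libraries each. Growth was in standard medium, and the labels give no age, sex or pooling of the mice. Nothing in them states that each library had its own culture or mouse. The p-values therefore rest on the spread among these libraries alone, and that spread may be technical.

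Libraries held 28169059 to 35798201 counts. The delivered gene was read 14 to 25 times in puro and 72525 to 98437 times in Prdm16 libraries. Levels below are CPM, counts scaled to a common library size with TMM, and a log2 fold change is Prdm16 over puro ± SE from edgeR's quasi-likelihood test, with a p adjusted by Benjamini-Hochberg over all 13805 genes tested. A gene was called at an adjusted p below 0.05. Of the mesenchymal progenitor markers, 8 of 10 could be tested, 6 fell, 1 rose and 1 did not pass. Of all genes tested, 38% fell and 37.5% rose. The list's summed level was 5999 to 6814 CPM in puro and 1658 to 1778 CPM in Prdm16 libraries. In puro libraries most of that sum came from the collagen genes Col1a1 (1705 ± 284 and 145 ± 22.5 CPM, SD, n = 3) and Col1a2 (3429 ± 191 and 189 ± 10.9 CPM), and Ly6a rose (1.39 ± 0.04). The receptor Pdgfra did not pass, at 199 ± 9.57 and 188 ± 6.64 CPM (SD, n = 3, adjusted p = 0.116). The receptor Pdgfrb fell from 555 ± 11.6 to 195 ± 3.09 CPM, and Cd34 from 16.4 ± 0.727 to 0.952 ± 0.213 CPM (SD, n = 3). Dcn and Thy1 also fell. Adipocyte markers summed to 137 to 151 CPM in puro and 535 to 634 CPM in Prdm16 libraries. Fabp4 made up most of that sum (115 ± 10.05 and 551 ± 51.3 CPM, SD, n = 3), and Lipe fell (−0.77 ± 0.07). Cidec and Adipoq also rose, to means of only 3.46 and 2.36 CPM in Prdm16 libraries. Plin1, Lep and Retn were too low for the test, with Plin1 at 10 counts in puro and 9 in Prdm16 libraries. Endothelial markers summed to 3.32 to 3.78 and 9.37 to 12.2 CPM, with Tek higher (3.08 ± 0.15), Vwf lower (−2.57 ± 0.22), Kdr not passing and Cdh5 at 0. In bulk RNA, fewer cells of a type and less RNA per cell cannot be told apart.

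Trim genes fell more often than they rose. Of the 67 members 45 had enough counts for a test, and 27 of them were lower in Prdm16 libraries, 11 higher and 7 not passing. The 38 called members were 84.4% of those tested, where 75.6% of all genes tested were called. Lower calls made up 60.0% of the tested members against 38% of all genes, and higher calls 24.4% against 37.5%. The median log2 fold change was −0.28 over the members and −0.01 over all genes, and it was −0.44 once the median of each gene's chromosome had been removed. Called members that moved by 1 or more on the log2 scale numbered 13, 11 lower and 2 higher (28.9%, against 21.8% of all genes, 12.1% lower and 9.69% higher). Groups did not overlap in 38 of the 45 tested members (84.4%), against 77.6% of all genes tested. These shares include a run of neighbouring copies on chromosome 7, described below. Outside that run 38 members were tested, of which 52.6% were lower and 28.9% higher, with a median of −0.15. As another family of RING ligases taken by name, the Rnf genes had 67 of 80 tested, of which 26 fell and 23 rose (73.1% called), with a median of −0.02.

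**Figure D1:**
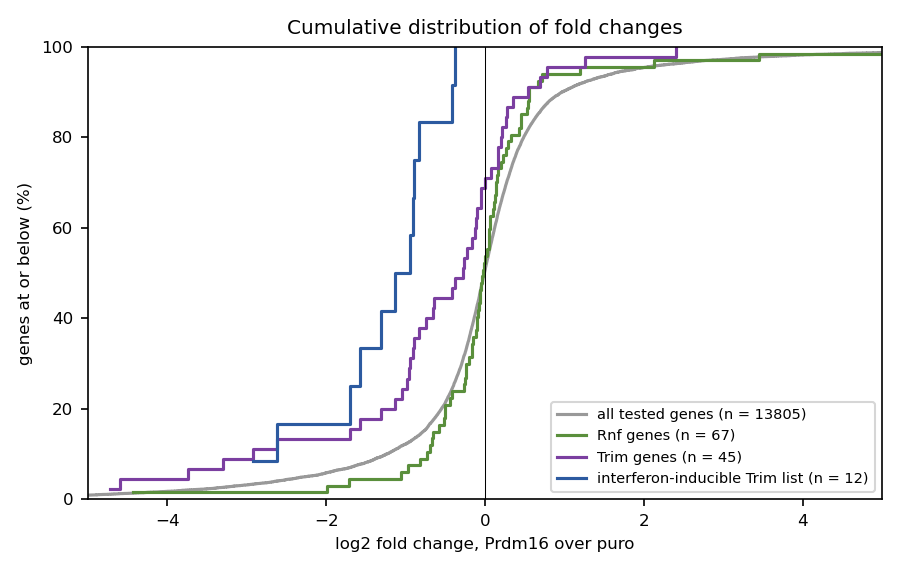
Cumulative share of genes (vertical axis, percent) at or below a log2 fold change, Prdm16 over puro (horizontal axis), for all tested genes, Rnf genes, Trim genes and the interferon-inducible Trim list. The curve of the 45 Trim genes lies above that of all 13805 genes between −4.72, the lowest Trim value, and 0. The medians are −0.28 and −0.01, and all 12 genes of the interferon-inducible list lie below 0.

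Summed over the family, Trim transcripts took 3181, 3139 and 3170 CPM in the puro libraries and 2220, 2219 and 2178 CPM in the Prdm16 libraries. The groups did not overlap, and the exact two-sided permutation p was 0.1, the smallest that 3 against 3 allows. Most of this drop lay in 8 neighbouring genes on chromosome 7, described next. Without them the sums were 2208 ± 26.8 and 1970 ± 20.3 CPM (SD, n = 3).

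In mouse, Trim5-like genes have multiplied into a run of copies. The annotation places Trim6, Trim34a, Trim5, Trim12a, Trim34b, Trim12c, Trim30b, Trim30c, Trim30a and Trim30d next to each other on chromosome 7, with no other named protein-coding gene between them. Of these 10 genes, 8 were counted here, and Trim5 and Trim30c were not analysed here. The 8 counted genes are classed here with the SPRY members, whose C-terminal fold lets TRIM5-type proteins recognise viral and cellular targets. Classes were assigned by symbol, and protein sequences were not checked, so a copy may lack the domain. The 7 genes of the run that could be tested all fell, with log2 fold changes of −0.89 to −2.92 and a median of −1.31. Their common direction cannot be read as 7 separate observations where copies share reads, so sums over copies are given as well. The other 998 tested genes of chromosome 7 had a median of −0.02, and 70.9% of them were called, 367 lower and 341 higher.

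The promoters of several of these genes hold letters that match the core of the interferon-stimulated response element, the site bound by interferon-activated transcription factors. Promoter sequences from RefSeq (GRCm38.p6, 250 bases before to 50 after a gene's start) were found for 51 of the 67 members and searched on both strands for GAAA, NN and GAAA in a row, where N is any base and matches may overlap. A match stood in 8 of the 51 members (15.7%), against 3.99% of 27025 genes with an entry. Within the interferon-inducible list 7 of 13 members had one (53.8%), and among the others 1 of 38 (2.63%). That list was drawn up from textbook knowledge with earlier results of these data known, and the motif itself stands for interferon response. The windows below are shown because they come from the 8 members with a match, 5 of them in the run; each has the motif in capitals within 30 bases, 5′ to 3′ along the gene's strand, and TTTC at its start is the motif read on the other strand.
Trim30a, chr7:104465210-104465239, minus strand: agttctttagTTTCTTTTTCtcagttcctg
Trim30a second promoter, chr7:104446104-104446133, minus strand: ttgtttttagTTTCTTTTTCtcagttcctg
Trim30d, chr7:104507871-104507900, minus strand: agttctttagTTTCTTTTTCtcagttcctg
Trim12a, chr7:104315466-104315495, minus strand: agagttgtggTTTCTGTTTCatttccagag
Trim12c, chr7:104353359-104353388, minus strand: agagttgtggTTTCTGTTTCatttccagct
Trim34a, chr7:104244457-104244486, plus strand: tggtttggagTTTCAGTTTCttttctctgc
Trim21, chr7:102565450-102565479, minus strand: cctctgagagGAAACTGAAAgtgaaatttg
Trim26, chr17:36836976-36837005, plus strand: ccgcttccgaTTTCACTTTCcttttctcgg
Trim2, chr3:84212791-84212820, minus strand: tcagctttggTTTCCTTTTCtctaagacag
The first Trim30a window and that of Trim30d were identical over all 30 bases, while that of the second Trim30a promoter entry differed from both outside the motif, and those of Trim12a and Trim12c differed at 2 of 30. In Trim21 and Trim26 a further match overlapped the one shown. Trim2, a ligase of neurons with an NHL domain, was the only member with a match outside the list, and its transcript did not pass (0.070 ± 0.05, adjusted p = 0.212). Trim25, Trim30b, Trim34b, Trim38, Trim56 and Trim69, also on the list, held no match, which says only that these letters are not in this window. A match is a description of the letters and was not tested for binding.

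Trim30a, which in mouse restrains Toll-like receptor signalling to NF-kappaB, was the most abundant member per length in the puro libraries. It stood at 506, 501 and 492 CPM in the puro libraries and at 68.4, 65.6 and 64.0 CPM in the Prdm16 libraries. Every Prdm16 library was far below every puro library, and the gene was 7.56-fold lower (log2 fold change −2.92 ± 0.04, adjusted p = 4.91e-13). Only 3.30% of all tested genes had a lower log2 fold change. Its share of all Trim counts went from 15.8 ± 0.239% to 2.99 ± 0.0782% (SD, n = 3).

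Trim30d, its neighbouring paralog, moved with it. Puro libraries had 138, 140.1 and 133 CPM and Prdm16 libraries 22.8, 22.2 and 22.1 CPM, again without overlap (log2 fold change −2.61 ± 0.04, adjusted p = 1.44e-12). Of the 50-base windows of their annotated transcripts, 5.98% of Trim30a and 7.49% of Trim30d occur in another gene, so that most of each transcript is its own. The pair together fell from 636 ± 10.4 to 88.4 ± 2.58 CPM (SD, n = 3). Fitted as 1 gene, it gave −2.84 ± 0.04 on the log2 scale. Trim30d made up 21.5 ± 0.305% of the pair's counts in puro and 25.3 ± 0.365% in Prdm16 libraries (SD, n = 3, exact two-sided permutation p = 0.1, the smallest possible). The groups did not overlap in that share.

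Both further Trim30 copies were near the limit of detection. Trim30b had 15, 7 and 10 counts in the puro and 0, 2 and 2 in the Prdm16 libraries, too few for the test. At equal depth the puro count was 7.85 times that of the Prdm16 libraries, and the exact 95% interval from counting ran from 2.78 to 30.5. Such intervals cover counting error only. Trim30e-ps1, a transcribed pseudogene on chromosome 7 that shares no 50-base window with another gene, had 36, 41 and 40 counts in puro and 0, 2 and 2 in Prdm16 libraries. Its log2 fold change of −4.72 ± 0.42, adjusted p = 1.36e-06, was the lowest of the family; it was −4.11 without Prdm16 replicate 1, −5.17 without Prdm16 replicate 2 and −5.07 without Prdm16 replicate 3. All 4 Trim30 copies with counts were thus lower in every Prdm16 library than in every puro library.

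Trim12a and Trim12c are the mouse relatives of the primate restriction factor TRIM5. Trim12c had 217, 214 and 209 CPM in puro libraries and 97.6, 98.0 and 95.6 CPM in Prdm16 libraries, 2.20-fold lower (log2 fold change −1.14 ± 0.03, adjusted p = 1.60e-10). Trim12a went from 46.1, 47.0 and 47.6 to 25.9, 24.0 and 25.8 CPM (−0.89 ± 0.05, adjusted p = 1.60e-08). Neither gene's groups overlapped. Trim12c shares 33.7% of its windows with other genes and Trim12a 10.5%, mainly Trim5 and each other, and the pair fitted as 1 gene gave −1.09 ± 0.03.

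Trim34a and Trim34b, also interferon-induced and of less known function, are close to duplicates: 59.7% and 56.8% of their windows occur in another gene. Trim34a was at 39.5, 40.6 and 42.2 CPM in puro libraries and 16.8, 16.9 and 15.5 CPM in Prdm16 libraries (−1.31 ± 0.05, adjusted p = 1.92e-09). Trim34b, far less abundant, had 5.13, 5.73 and 4.65 CPM and 1.96, 1.62 and 1.62 CPM (−1.57 ± 0.14, adjusted p = 1.03e-06). The sources used here do not state how reads common to both were counted, and the split between them is uncertain. Their sum went from 46.0 ± 1.15 to 18.2 ± 0.865 CPM (SD, n = 3), or −1.34 ± 0.05 on the log2 scale.

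Trim6, which makes unanchored ubiquitin chains in interferon signalling, closes the run at its other end. It had 13.3, 13.3 and 12.6 CPM in puro and 7.04, 6.39 and 6.35 CPM in Prdm16 libraries (−0.98 ± 0.08, adjusted p = 4.13e-07). Together the 8 counted genes of the run fell 4.03-fold, from 956 ± 13.0 to 235 ± 4.74 CPM (SD, n = 3). Their share of all Trim counts was 30.2 ± 0.485% in puro and 10.7 ± 0.139% in Prdm16 libraries.

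**Figure D2:**
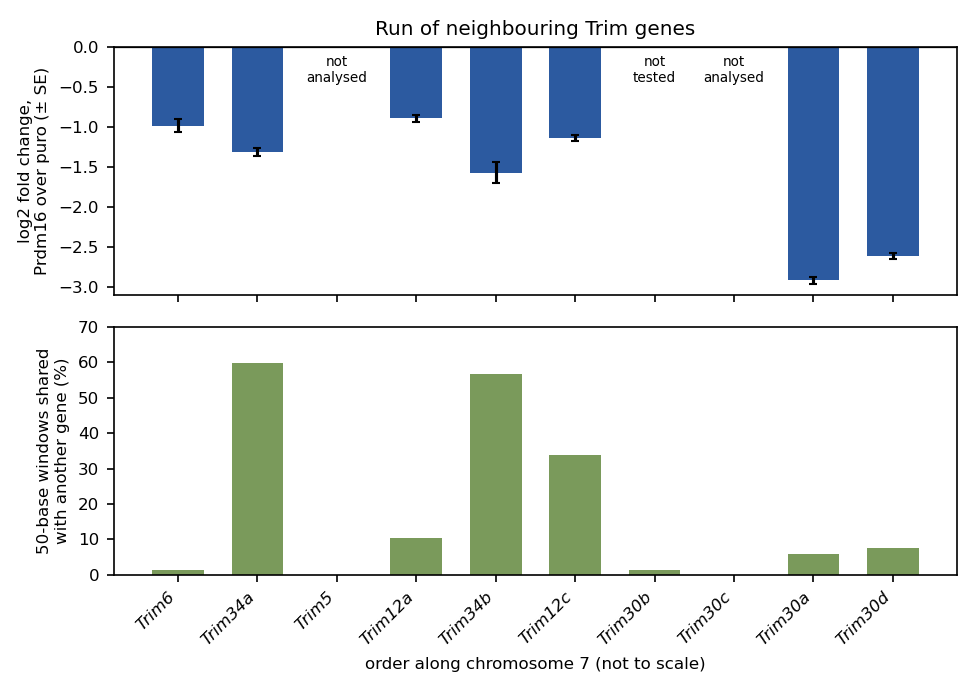
Upper panel: log2 fold change, Prdm16 over puro (bar, ± SE), of the 10 neighbouring Trim genes of the chromosome 7 run in their order; Trim genes elsewhere on the chromosome are not drawn. Lower panel: percent of each gene's 50-base transcript windows that occur in another gene. Among the counted genes of the run, Trim30b and Trim6 share the least, and Trim34a and Trim34b the most. Trim30a and Trim30d share 5.98% and 7.49%.

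Macrophages and lymphocytes also express Trim30 genes, so their markers were read in the same libraries. Of 9 macrophage markers in the table, 3 could be tested and 2 fell, where 38% of all genes did. The list's summed level was 14.2 to 15.4 CPM in puro and 8.45 to 8.66 CPM in Prdm16 libraries. The defining markers Emr1 and Cd163 were at 0 in all libraries, and Ptprc, the pan-leukocyte CD45, had 0 counts in puro and 7 in Prdm16 libraries. The 2 that fell were Lyz2, from 146 counts to 3, and Cd14 (−1.31 ± 0.09). Cd68 did not pass, at 384 and 450 counts, and Csf1r, too low for the test, had 31 and 9 counts without overlap. The part of such cells in the fall of Trim30a was not tested. No lymphocyte marker reached the test, and Cd3e, Cd3d and Ms4a1 were at 0 throughout. Trim30a itself was at 492 to 506 CPM in the puro libraries, and levels of different genes do not give the share of such cells.

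Most genes of the run belong to a list of members known to be induced by interferon, and those of the list that lie elsewhere fell as well. Of 20 symbols on that list 14 were in the table and 12 could be tested, and all 12 were lower, 6 of them by 1 or more on the log2 scale (median −1.04). The other 33 tested members divided into 15 lower, 11 higher and 7 not passing, with a median of −0.11. Of all genes 38% were lower and 37.5% higher, near the 45.5% and 33.3% of these other members. The difference between the list and the other members was not tested.

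Trim25, the ligase that ubiquitinates the RNA sensor RIG-I, came next after Trim28 in per-length level in puro. Its values were 348, 339 and 358 CPM in puro libraries and 107, 113 and 100.05 CPM in Prdm16 libraries, 3.26-fold lower without overlap (−1.71 ± 0.05, adjusted p = 6.43e-11). Trim21, a cytosolic antibody receptor that directs antibody-coated virus to the proteasome, had 82.9, 78.1 and 80.8 CPM and 44.1, 39.3 and 42.1 CPM (−0.94 ± 0.05, adjusted p = 9.96e-09), and its groups did not overlap either. Trim14, an adaptor of antiviral signalling at mitochondria that lacks the RING finger, had 16.2, 13.9 and 17.3 CPM and 9.37, 7.43 and 8.36 CPM (−0.90 ± 0.10, adjusted p = 1.14e-05). It overlaps a neighbouring gene, Nans, and 33.9% of its windows occur elsewhere, so its count is uncertain.

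Smaller falls came from Trim26 and Trim56. Trim26, a regulator of interferon induction at the edge of the MHC on chromosome 17, went from 89.0, 90.4 and 92.0 to 69.3, 69.7 and 64.6 CPM (−0.41 ± 0.04, adjusted p = 3.83e-06). Trim56, which acts in signalling from cytosolic nucleic acid, had −0.37 ± 0.04, adjusted p = 7.87e-06, with 114 ± 2.94 and 87.9 ± 3.08 CPM (SD, n = 3). The tested gene of the list with the fewest counts was Trim69, at 21, 21 and 18 counts in puro and 16, 6 and 11 in Prdm16 libraries (−0.83 ± 0.30, adjusted p = 0.0276). It no longer passed on leaving out puro replicate 1 (adjusted p = 0.0818), puro replicate 2 (0.0621), Prdm16 replicate 2 (0.0921) or Prdm16 replicate 3 (0.0701). Trim38 was not tested, with 30 counts in the puro libraries together and 6 in the Prdm16 libraries.

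**Figure D3:**
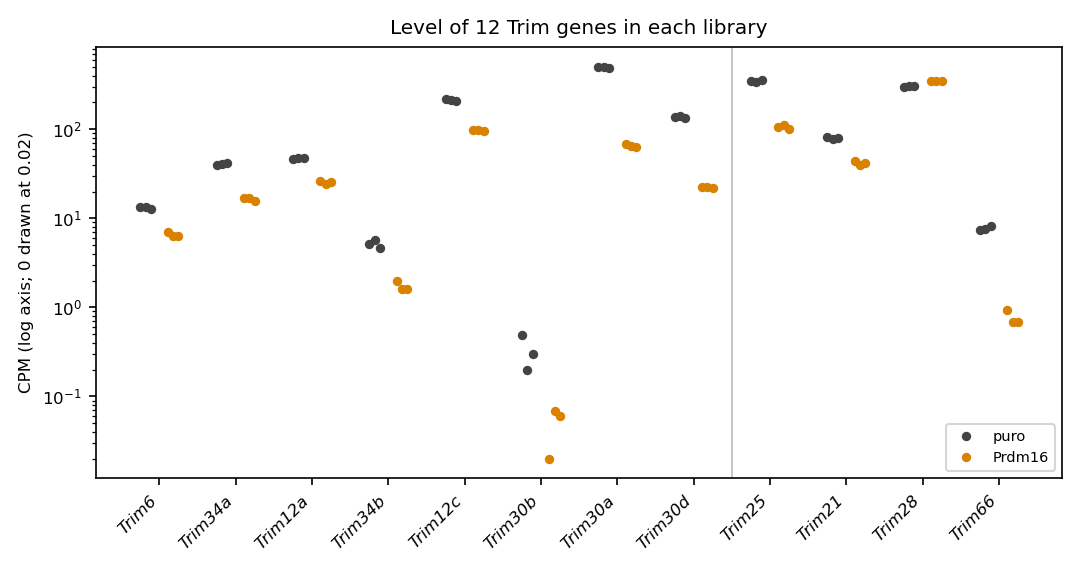
Level of 12 Trim genes in each library (CPM, log axis), with the 3 puro libraries in black and the 3 Prdm16 libraries in orange; a count of 0 is drawn at the bottom. Left of the line are the 8 counted genes of the chromosome 7 run in order; for every gene shown but Trim28 all Prdm16 libraries lie below all puro libraries.

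Signalling genes around these ligases were read from lists fixed with the members, when earlier results of these data were already known. Among all genes tested 38% were called lower, and the counts below are to be read beside that share. All 5 genes of ISG15 conjugation, the ubiquitin-like modification that interferon induces, were lower, with Isg15 itself from 785 ± 9.80 to 206 ± 3.41 CPM (SD, n = 3; −1.93 ± 0.03) and the removing protease Usp18 at −2.12 ± 0.05. Of 21 genes of RIG-I and interferon signalling 14 fell (66.7%, against 38% of all genes), 2 rose and 5 did not pass. Irf7, the interferon-induced regulator that amplifies the response, had −3.81 ± 0.07, adjusted p = 3.99e-12, the RIG-I relative Dhx58 −2.41 ± 0.06, Ifih1, which encodes the sensor MDA5, −1.33 ± 0.04 and Ddx58, which encodes RIG-I, −1.26 ± 0.03. The 2 that rose were Irf3 (0.40 ± 0.08) and Mavs (0.22 ± 0.04), named after their values were seen.

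Family members under other symbols went the same way where they could be tested. Pml, or TRIM19, the organiser of nuclear bodies and an interferon target, fell from 291 ± 14.7 to 135 ± 4.40 CPM (SD, n = 3; −1.11 ± 0.04, adjusted p = 1.37e-09). Mid1 and Mid2, the microtubule-bound TRIM18 and TRIM1, had −0.42 ± 0.05 and −0.39 ± 0.04. Mefv, Cmya5, Triml1 and Triml2 held too few counts for the test, Cmya5 the most with 32 in the puro libraries together. All 3 tested genes of this list were lower, where 38% of all genes were.

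By C-terminal domain, the SPRY class held 38 members, of which 24 could be tested, 16 fell (66.7%, against 38% of all genes) and 4 rose (16.7%, against 37.5%), with a median of −0.86. Classes were assigned by symbol, without a check of protein sequences. Of the 12 tested genes of the interferon-inducible list, all lower, all but Trim56 were put in the SPRY class. Its share and median include them. Outside that list, Trim30e-ps1, Trim6, Trim27, Trim62 and Trim7 fell and Trim16, Trim35, Trim39 and Trim65 rose. Trim11, Trim41, Trim47 and Trim68 did not pass. The other classes held 4 or 5 tested members each, too few to read their shares against those of all genes. Of 5 tested COS-box members, which bind microtubules or muscle fibres, 3 fell and 2 rose. The NHL or filamin class had 3 of 4 lower and none higher, and the PHD-bromodomain class of chromatin regulators 2 lower and 2 higher of 4. Members with an ARF, MATH or transmembrane part had 3 of 4 higher and 1 lower. Of the 4 tested members with no such domain or another one, 2 fell and 2 did not pass.

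**Figure D4:**
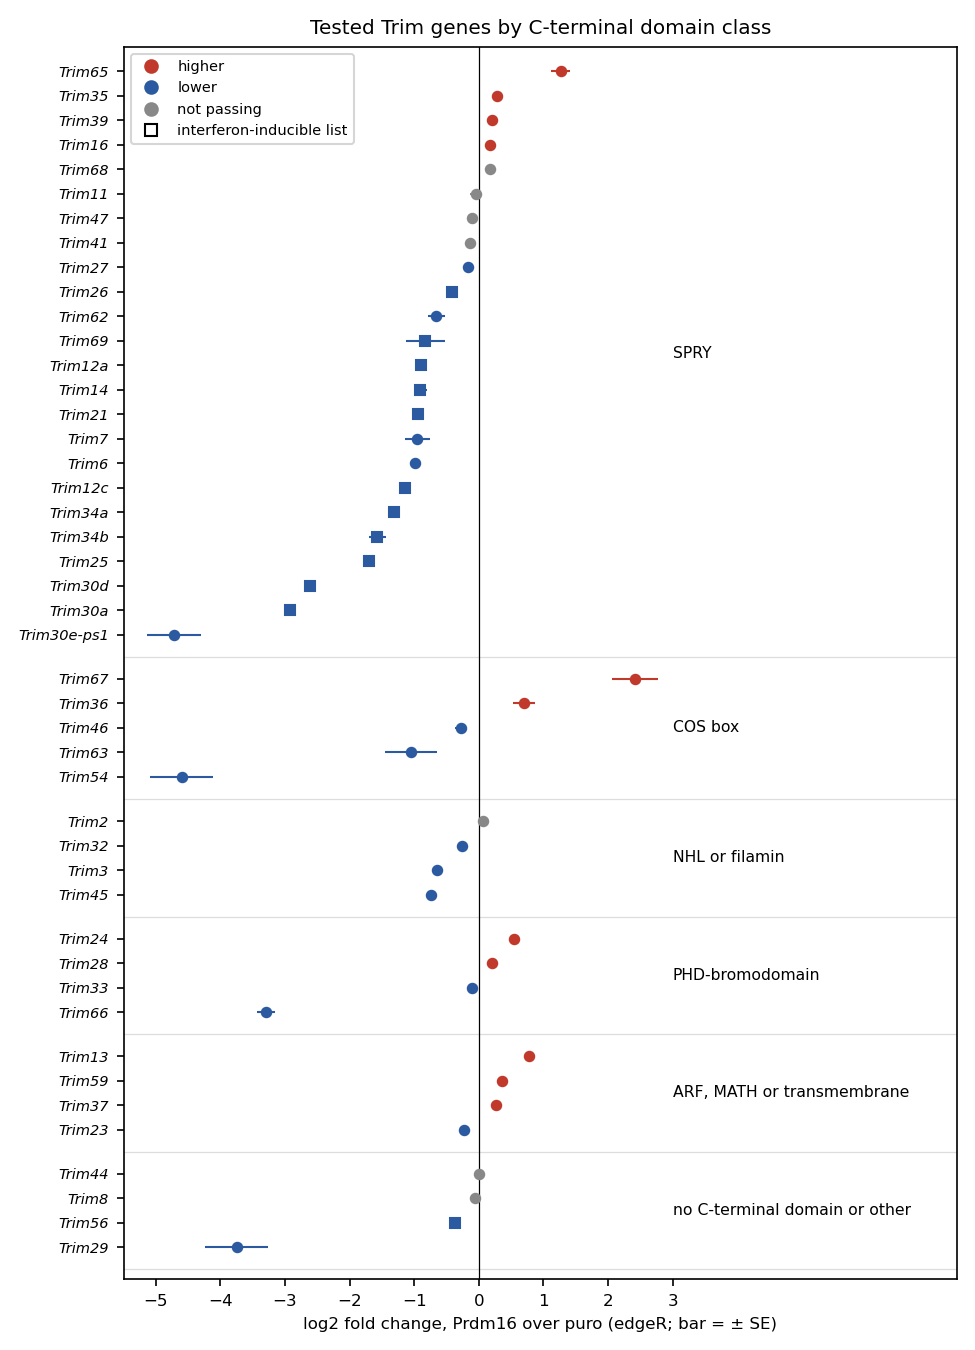
log2 fold change, Prdm16 over puro (horizontal axis, point ± SE), of the 45 tested Trim genes in 6 domain classes; colour marks the call and squares the interferon-inducible list. The lowest values are those of Trim30e-ps1 (−4.72) and Trim54 (−4.60), the highest that of Trim67 (2.41).

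Among the SPRY genes away from the run, Trim65, a ligase acting on the RNA sensor MDA5, rose. Its level went from 1.48, 1.98 and 1.58 CPM in puro to 4.37, 4.15 and 3.65 CPM in Prdm16 libraries, 2.40-fold higher without overlap (1.26 ± 0.14, adjusted p = 1.11e-05). Its neighbour on chromosome 11, Trim47, had 42.3, 39.7 and 48.9 CPM and 44.0, 37.5 and 39.7 CPM, and its groups overlapped (−0.11 ± 0.08, adjusted p = 0.234). The 2 genes share 6.58% of the windows of Trim47 and at most 3.66% of those of Trim65.

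The second pair on chromosome 11, Trim41 and Trim7, is described in the same way. Trim7, known for binding the glycogen primer glycogenin, had 2.19, 2.72 and 3.10 CPM in puro libraries and 1.73, 1.28 and 1.11 CPM in Prdm16 libraries, below every puro library (−0.95 ± 0.19, adjusted p = 9.66e-04). Trim41 had 46.5, 42.9 and 49.9 CPM and 44.8, 40.7 and 41.5 CPM with overlapping groups (−0.13 ± 0.06, adjusted p = 0.0686). It passed without puro replicate 2 (−0.19, adjusted p = 0.0175), without Prdm16 replicate 1 (−0.17, adjusted p = 0.0365) and with upper-quartile scaling (−0.15, adjusted p = 0.0442).

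Further SPRY genes moved by less than 1 on the log2 scale. Trim35, also called Hls5, rose by 0.28 ± 0.04 from 115 ± 5.34 to 141 ± 3.07 CPM (SD, n = 3), but lies on chromosome 14, whose tested genes had a median of 0.49. With chromosome medians removed its sign turned, to −0.20 (adjusted p = 0.00120). Trim39, a ligase known from cell cycle control, had 0.20 ± 0.06, adjusted p = 0.00819, and Trim62, −0.66 ± 0.13, adjusted p = 8.22e-04. Trim27, a partner of repressor complexes, had 55.3, 50.1 and 55.0 CPM in puro and 49.96, 46.8 and 46.3 CPM in Prdm16 libraries (−0.16 ± 0.05, adjusted p = 0.0126); the call was lost without puro replicate 1 (adjusted p = 0.0505) or Prdm16 replicate 3 (0.0619).

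Trim16, a RING-less member, had 0.17 ± 0.07, adjusted p = 0.0388, and lost its call without puro replicate 3 (adjusted p = 0.136; log2 fold change 0.11), Prdm16 replicate 2 (0.0546) or Prdm16 replicate 3 (0.102). Trim68 missed the threshold (0.17 ± 0.07, adjusted p = 0.0615) and passed without puro replicate 1 (adjusted p = 0.0376), although its groups did not overlap. Trim11 had −0.051 ± 0.09, adjusted p = 0.612, and its sign turned without puro replicate 3 (0.035) or Prdm16 replicate 2 (0.0089).

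The PHD-bromodomain members are chromatin regulators. Trim28, or KAP1, the corepressor recruited by KRAB zinc-finger proteins to silence retroelements, was the most abundant member per length in Prdm16 libraries. It had 298, 307 and 304 CPM in puro and 352, 353 and 346 CPM in Prdm16 libraries, and the groups did not overlap despite a small difference (0.21 ± 0.03, adjusted p = 9.63e-05). Trim24, a coregulator of retinoic acid receptors, rose from 62.7, 63.3 and 58.8 to 87.5, 90.7 and 91.0 CPM (0.54 ± 0.04, adjusted p = 3.97e-07). Both differences were well under the 2-fold mark that 13 other members passed.

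Trim33, which acts on Smad4 in TGF-beta signalling, had 107, 103 and 102 CPM in puro and 94.6, 101.38 and 94.2 CPM in Prdm16 libraries (−0.11 ± 0.04, adjusted p = 0.0405). This call ended without puro replicate 1 (adjusted p = 0.128), puro replicate 2 (0.0711), Prdm16 replicate 1 (0.144) or Prdm16 replicate 3 (0.172), and with RLE scaling (0.0577). The fourth, Trim66, known from germ cells, went the furthest. It fell from 7.32, 7.57 and 8.19 to 0.937, 0.691 and 0.689 CPM, 9.85-fold, with no overlap (−3.30 ± 0.14, adjusted p = 2.43e-09). Of 13 genes that work with Trim28 in silencing 9 rose, 1 fell and 3 did not pass, with a median of 0.17, where 37.5% of all genes rose. The remodeller Chd3 (1.24 ± 0.04) and the methylation guide Uhrf1 (0.66 ± 0.04) led the rises, with Chd4 at 0.25 ± 0.03, and Morc3, an ATPase of nuclear bodies, had −0.47 ± 0.04.

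The muscle-type members Trim63, Trim55 and Trim54 (MuRF1, MuRF2 and MuRF3) are known from striated muscle and were scarce here. Trim54 was read 31, 28 and 24 times in puro and 1, 0 and 2 times in Prdm16 libraries, at equal depth 27.1 times as many in puro (exact 95% interval from counting 8.97 to 134). The fit gave −4.60 ± 0.49, adjusted p = 6.07e-06, and 18.4% of its windows occur in a predicted gene, Gm15469. The fitted value was −4.14 without Prdm16 replicate 2 and −5.43 without Prdm16 replicate 3. Trim63 had 18, 23 and 27 counts and 18, 11 and 3 counts, or 0.581, 0.659 and 0.805 CPM and 0.511, 0.380 and 0.0899 CPM (−1.05 ± 0.41, adjusted p = 0.0365). Without Prdm16 replicate 3, its lowest library, the value was −0.59 (adjusted p = 0.105), and it also did not pass on leaving out puro replicate 2 (0.0665), puro replicate 3 (0.0913) or Prdm16 replicate 2 (0.0567). Trim55 held 2 counts in all puro libraries and 1 in all Prdm16 libraries.

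Other COS-box genes are known from neurons and sperm. Trim67, a neuronal ligase, rose from 4, 5 and 2 counts to 21, 16 and 22 counts (2.41 ± 0.36, adjusted p = 8.73e-05), the largest rise of the family, with all Prdm16 libraries above all puro libraries. Its relative Trim9 had no count in any library, which allows up to 3 counts or 0.0852 to 0.104 CPM in a library. Trim36, or haprin, had 0.903, 0.975 and 1.07 CPM and 1.76, 1.38 and 1.62 CPM (0.69 ± 0.17, adjusted p = 0.00368) and 1.10 with chromosome medians removed. Trim46, a microtubule organiser of the axon, had −0.28 ± 0.09, adjusted p = 0.0157, with overlapping groups. It did not pass on leaving out puro replicate 2 (adjusted p = 0.0586) or Prdm16 replicate 2 (0.0636), and with chromosome medians removed (0.439).

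Of the NHL and filamin members, Trim32, a ligase whose loss causes a limb-girdle muscular dystrophy, had 78.7, 76.4 and 78.8 CPM in puro and 64.0, 63.7 and 67.5 CPM in Prdm16 libraries (−0.26 ± 0.04, adjusted p = 1.05e-04). Trim3 had −0.64 ± 0.05 and Trim45 −0.74 ± 0.07. The stem-cell gene Trim71, or Lin41, held 16 counts in all puro and 4 in all Prdm16 libraries and was not tested.

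The ARF, MATH or transmembrane class had 3 of 4 members higher, too few to read against the 37.5% of all genes. Trim13, a ligase of the endoplasmic reticulum, rose by 0.78 ± 0.09 (adjusted p = 1.09e-05) from 4.70 ± 0.157 to 8.09 ± 0.495 CPM (SD, n = 3), and by 0.30 with the median of chromosome 14 removed; 14.2% of its windows occur in a predicted gene, Gm9359. Trim59, a membrane-spanning member, rose by 0.36 ± 0.04 from 178 ± 5.23 to 227 ± 9.06 CPM (SD, n = 3), and by 0.55 with chromosome medians removed. Trim37, a MATH-domain ligase of centrosomes, rose by 0.27 ± 0.04. Trim23, which carries an ARF GTPase domain, had −0.22 ± 0.05, adjusted p = 0.00250.

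Trim29, a RING-less protein of basal epithelia, was read 30, 17 and 26 times in puro and 1, 2 and 2 times in Prdm16 libraries (−3.75 ± 0.49, adjusted p = 3.24e-05). Mammary epithelial markers, read beside it, had 4 of 8 tested and all 4 higher, where 37.5% of all genes were. Their summed level was 0.677 to 1.01 CPM in puro and 21.9 to 23.8 CPM in Prdm16 libraries. The basal keratins Krt5 and Krt14 had at most 3 counts over a group. Their part in the value of Trim29 was not tested. Trim8 and Trim44 did not pass, at −0.055 ± 0.09 and 0.0011 ± 0.04. Trim8 lies on chromosome 19, whose median was 0.39, and had −0.44 with it removed (adjusted p = 7.79e-04). Without puro replicate 3 it had 0.054.

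Compared per kb of exon, the order of the members' levels differed between the groups. In puro libraries Trim30a led with 132 ± 1.90 CPM per kb, followed by Trim28 with 93.3 ± 1.48 (SD, n = 3). Trim25 (60.5 ± 1.62), Trim59 (60.4 ± 1.78) and Trim12c (57.0 ± 1.02) came next, and the first 2 of these were within their spread of each other. In Prdm16 libraries the order was Trim28 (108 ± 1.09), Trim59 (77.3 ± 3.08), Trim35 (38.2 ± 0.834), Trim12c (26.0 ± 0.338) and Trim26 (21.0 ± 0.866), the last level with Trim24 (20.9 ± 0.450) within the spread. Trim30a was then 12th of 67. Exon lengths came from an annotation of another build than the files' and are approximate.

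**Figure D5:**
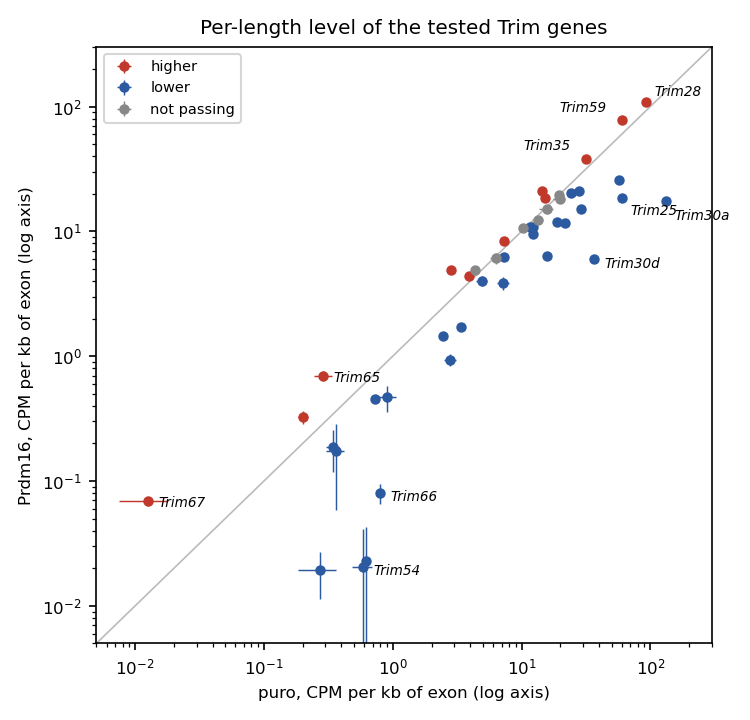
Level per kb of exon (CPM per kb, log axes) of the 45 tested Trim genes in puro (horizontal) and Prdm16 libraries (vertical); points are means of 3 libraries, bars ± SD, and the line marks equal levels. Trim30a lies furthest right, at 132 in puro and 17.5 in Prdm16 libraries, and Trim28 highest, at 108 in Prdm16 libraries.

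The 22 members that were not tested held few counts. 9 of them (Trim9, Trim31, Trim40, Trim42, Trim43b, Trim52, Trim58, Trim60 and Trim75) had none in any library, and no group total of the other 13 was above 32. In the MHC run on chromosome 17, where Trim26 is followed by Trim15, Trim10, Trim40 and Trim31, only Trim26 was tested. Trim10, an erythroid member, had 8, 3 and 3 counts in puro and 4, 1 and 1 in Prdm16 libraries, and Trim15 had 1 count over each group. The run of Trim75, Trim60 and Trim61 on chromosome 8 held 3 counts in all, all of Trim61 in Prdm16 libraries. Trim72, a membrane-repair protein of muscle, held 23 counts in all puro and 5 in all Prdm16 libraries, and Trim17 held 20 and 9. Trim43a, Trim43c, Trim50 and Trim80 had at most 4.

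General ubiquitin enzymes that serve RING ligases were mixed. Of 13 E1 and E2 genes measured 5 rose, 3 fell and 5 did not pass, with a median of 0.05. The 38.5% that rose is near the 37.5% of all genes, and the 61.5% called is below 75.6%. Ube2e3 (1.07 ± 0.04) and Ube2k (0.47 ± 0.04) rose, as did Ube2e1 (0.34 ± 0.04), and Ube2e2 had −0.63 ± 0.05.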

How the data were processed

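Whole-number counts per gene, as deposited by the authors for 6 libraries with no normalization, were the only values used. The submitters' processing notes name STAR, featureCounts, Subread and the build mm9, with no role or version. The sources used here name neither the strand setting nor the treatment of shared reads. With edgeR 4.0.16 (R 4.3.3), filterByExpr left 13805 of 24197 genes, TMM set the library scaling, and a quasi-likelihood test (two-sided, group the single term) gave each gene's p. The common biological coefficient of variation was 4.78%. The fit was tested on simulated data in which every gene had the same dispersion and few genes changed. That setting is simpler than these data, so it does not show how the fit behaves on them.

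The members and lists were chosen with earlier results of these data known. Per-library values are given for called members with a log2 change of at least 1 and at least 1 CPM in the higher group, for counted members of neighbouring runs, and for Trim28, Trim24, Trim33, Trim21, Trim25, Trim27, Trim32 and Trim63. Predicted gene models did not break a run. From other lists up to 4 genes with the smallest p are named, and others where they bear on the text. Chromosome, exon length and 50-base windows came from GRCm38 annotations (GENCODE M21 and RefSeq), matched by symbol. Replicates of a group differed by 2.08 to 8.85 in chi-square per gene, above the sampling noise of 1, and each was counted as labelled. Alternatives used limma 3.58.1 (voom) and DESeq2 1.42.0, other scalings and filters, a replicate block, chromosome medians removed, Prdm16 left out, and each library left out.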

Additional observations from a re-analysis of the deposited data

How the results depend on the processing

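Of the 45 tested Trim genes, 32 kept their direction and their side of the threshold under every alternative run. Trim members called lower numbered 23 to 30 (27 as reported) and called higher 10 to 12 (11 as reported) over the 15 alternatives. The interferon-inducible list had 11 to 14 lower and none higher; with no low-count filter Trim30b and Trim38 were also called. The count of all genes called differed by less than 1.5 times throughout. The members' median moved from −0.28 to −0.44 with chromosome medians removed and ranged from −0.24 to −0.36 when each library was left out. Sums of copies gave −2.84 for the Trim30 pair, −1.09 for the Trim12 pair and −1.34 for the Trim34 pair.

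Signs turned with chromosome medians removed for Trim35 (−0.20), Trim33 (0.092), Trim44 (−0.039) and Trim11 (0.00017), by the construction of that alternative. Trim44, not passing in the fit as reported, also turned with upper-quartile scaling (−0.017), with genes under 1 CPM in more than 3 libraries dropped (−0.00511) and on leaving out puro replicate 2 (−0.013), puro replicate 3 (−0.010) or Prdm16 replicate 2 (−0.024). Leaving out puro replicate 3 also turned Trim11 (0.035) and Trim8 (0.054), and leaving out Prdm16 replicate 2 turned Trim11 (0.0089); the cause was not tested. With single libraries left out, Trim11 ranged from −0.13 to 0.035, Trim44 from −0.024 to 0.027 and Trim8 from −0.13 to 0.054.

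Counted per promoter entry rather than per gene, an alternative chosen after seeing the data, the motif stood in 13.8% of the members' entries and 3.44% of all entries. With the replicate block 26 members were lower and 10 higher, Trim33 and Trim16 losing their calls (adjusted p = 0.0743 and 0.0648), and all genes called were 5017 higher and 5072 lower. Deviations of same-numbered libraries correlated at −0.10, 0.08 and −0.04, so the numbers were not taken to pair the libraries, and not every library correlated best with its own number. DESeq2 ended the calls of Trim16 (adjusted p = 0.0748), Trim33 (0.0819), Trim63 (0.0594) and Trim69 (0.112), upper-quartile scaling that of Trim16 (0.0572) and no low-count filter that of Trim33 (0.111). Trim68 passed with no low-count filter (0.0469), and Trim68 (0.0336) and Trim2 (4.55e-04) with chromosome medians removed. At these depths the low-count genes Trim63 and Trim69 changed call with single libraries.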
